A study of Mus musculus with 2 samples.

Results

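Splice junctions whose ends lie 100 kb or more apart were described in RNA of mouse subcutaneous fat, the white adipose depot under the skin. A junction was taken when its length, the end minus the start in the table, was at least 100000 bases, when at least 10 reads crossed it, and when both read numbers carried in its name (called R1 and R2 there) were above 0. These requirements were met by 1298 of the 480876 junctions in the table. They were chosen by their length and reads, so both are given as a description with no test. They are called junctions and not introns, because most had no match to an annotated intron. Of the 1298, 400 (30.8%) had the chromosome, strand and exact length of an intron of the GENCODE M21 annotation, and 898 did not. A missing match by itself does not show that a junction is not an intron.

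The series holds a single group of 2 libraries, replicates 1 and 2, from C57BL/6J mice aged 8 weeks with no genotype or treatment named. Littermates of both sexes were pooled, and both tissue samples fall under a shared donor record. RNA longer than 200 nt was selected for polyA tails after removal of ribosomal RNA, and stranded read pairs of 76 nt were sequenced. The junction table covers both libraries at once on genome build mm9, and no label ties R1 or R2 to replicate 1 or 2.

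An intron is removed when the spliceosome joins the exon before it (the donor side) to the exon after it (the acceptor side), so a junction read holds the end of one exon directly followed by the start of the next. Very long introns in mammals are found mainly in genes for adhesion proteins, receptors, cytoskeletal linkers and transcription regulators, and are often the first of their gene. In gene families made by tandem duplication, near-identical exons lie side by side along a chromosome, and a short read of one copy can also be placed across copies.

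Annotated genes held 53601218 expected counts in replicate 1 and 57500971 in replicate 2. The labelled tissue was checked against 10 adipocyte genes, among them Adipoq (adiponectin), Plin1 and Lep, with a summed TPM of 20728 in replicate 1 and 44795 in replicate 2. Genes of epithelium and smooth muscle also differed between the libraries. The 9 glandular epithelium genes (such as Krt8, Epcam and Cdh1) summed to 762 and 15.4 TPM in replicates 1 and 2, and the 6 smooth muscle genes (such as Acta2 and Myh11) to 5299 and 671. For 8 genes of Schwann cells and neurons the sums were 25.9 and 30.1 TPM, and for 6 skeletal muscle genes 212 and 116. Acta1 alone made up 203 and 115 of the skeletal muscle sums, and Myh4 was at 0 in both libraries. In pooled tissue, fewer cells of a type and less RNA per cell cannot be told apart.

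The joined exon ends of the most read junctions with an annotated length are shown first, because these are the sequences the reads span. Each line gives the last 15 bases of the exon before the intron in lower case and the first 15 bases of the exon after it in capitals, 5′ to 3′ on the transcript strand, from GENCODE M21 transcripts on GRCm38. The 10 junctions with the most reads in this group follow, with their lengths in bases.
Ghr, 124991: aggcgaaactccgagGTCTCAGGTATGGAT
Cdh13, 169302: agcctgtcctaaactTGACCTTCAATGACT
Ugt1a6b, 107244: ggaaagctgactcagGAATTTGAAGCCTAT
Msra, 126954: cgatccctgtaacagCCAAACACCATGTCA
Cdh13, 126991: aagggtcacccacagGGACCACGGTGATGC
Ablim1, 141233: ccatgtccacccgagTGGCCCATCCTCAGG
Trabd2b, 170837: ctcaacttctcccagGTGTTGTTTGCCCTG
Babam2, 100196: accccgaattgagcaTGCACTCGGAGGCTC
Rbms1, 120218: tatctgcaagccaagCAGTCTCTGGTCCCA
Tbl1x, 122276: acggctcgcggcgagGGTGGTCCTGGACTT
Sequences were read for 374 of the 400. The exon before the junction ended in ag in 230 of the 374 (61.5%), and the exon after it began with G in 164 (43.9%).

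Several genes had more than 1 of these junctions with a common end, and the sequences show which exon was shared. The 2 other junctions of Ghr with an annotated length, with 192 and 46 reads, each kept one side of the main junction. Ghr was also named at the ends of 3 junctions without an annotated length, 123967 to 124136 bases long, with 151 reads together. The junction of 124249 bases joined another upstream exon to the same downstream exon, and that of 194286 bases joined the same upstream exon to another downstream exon.
Ghr, 124249: cctccatgaactgggGTCTCAGGTATGGAT
Ghr, 194286: aggcgaaactccgagCTACACCAGCTACTC
In Celf2, which encodes an RNA-binding splicing regulator, 3 of 4 junctions ended at the same downstream exon.
Celf2, 240765: tggaagtccaccaagTAACGGCACAGCCAA
Celf2, 150742: cgttgctgacagaatTAACGGCACAGCCAA
Celf2, 150253: gtgtggaaattagagTAACGGCACAGCCAA
Celf2, 118692: ctggaaagcgttaagAGAGACTGCCACAGA
Their reads were 251, 182, 11 and 149, in that order. The last of these junctions ends at the exon from which the first begins.

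Sequences were also compared for a share of the junctions without an annotated length. For 107 of these 898, the ends could be placed in 2 different genes. In 94 of them, the joined sequence was set beside the junction sequence of each gene on its own. In 84 of the 94, the joined sequence over 30 bases was identical to the own junction of at least one of the genes. Over up to 38 bases on each side, 56 of the 94 (59.6%) had identical exon ends on at least 1 side and 16 on both, with a median of 1 difference upstream and 1 downstream. Where several annotated exons could be used, the pair with the fewest differences was taken. The first 3 examples show the own junction of the donor gene, the joined sequence with its length, and the own junction of the acceptor gene. They are shown because the joined sequence in each equals that of the acceptor gene and differs from that of the donor gene.
Selenbp2, own: ctcatgtggaggctgGGCTGTATGGGAGCC
Selenbp2 to Selenbp1, 240335: ctcatgtggaggctgGGCTGTACGGGAGCC
Selenbp1, own: ctcatgtggaggctgGGCTGTACGGGAGCC
Gstm4, own: tgggacatccgtgggCTAGCTCACGCTATT
Gstm4 to Gstm7, 113246: tgggacatccgtgggCTAGCCCATGCCATT
Gstm7, own: tgggacatccgtgggCTAGCCCATGCCATT
Cyp2d26, own: atccagatgtgcagcGCCGTGTCCACCAGG
Cyp2d26 to Cyp2d22, 418755: atccagatgtgcagcGCCGAGTACAACAGG
Cyp2d22, own: atccagatgtgcagcGCCGAGTACAACAGG
The joined sequence differed from the donor gene's own junction at 1, 3 and 3 of 30 bases and from the acceptor gene's at 0 in each of the 3. Other junctions went the opposite way and equalled only the donor gene's own junction. The most read of the 94, from 2610005L07Rik to 6820431F20Rik with 1217 reads, differed from the donor gene's at 0 bases and from the acceptor gene's at 9. Another from Gstm4 to Gstm7, of 113460 bases with 10 reads, had 0 and 2. The 3 examples thus give no direction for the rest. A junction from H2-D1 to H2-Q6, class I antigen presentation genes, is shown as a contrast: there 12 of 30 bases differed from either gene's own junction. In 10 of the 94, more than 20 bases differed in all.
H2-D1, own: atgctctggctccagGCTCCCAGAGCTCTG
H2-D1 to H2-Q6, 162485: atgctctggctccagAGAACAGTGTCTGAT
H2-Q6, own: gaaggagacacacagAGAACAGTGTCTGAT

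The genes joined in this way were often unequal in level, a measure chosen after the junctions had been seen. Both levels were known for 91 of the 94 junctions, which joined 49 different pairs of genes. Counted over the 91 junctions, the higher gene had a median of 22.8 TPM and the lower 2.37 TPM. In 39 of the 91 the higher was more than 10 times the lower. A pair joined by several junctions, such as Selenbp2 and Selenbp1, entered once for each, so these are not counts of pairs. No other pairs of genes were compared. Selenbp2 had 2.6 and 2.19 TPM in replicates 1 and 2, and Selenbp1 118 and 267. Cyp2d26, a cytochrome P450, had 0.33 and 0.13 TPM and its relative Cyp2d22 35.2 and 43. Gstm4 and Gstm7, glutathione transferases, had 23.2 and 34.4 TPM and 175 and 12.4 TPM, so that the higher gene of this pair was not the same in both libraries. In 48 junctions the joined bases equalled the own junction of 1 gene only, and in 27 of these 48 that gene was the higher one of the pair. In 33 they equalled both and in 10 neither. Reads of such copies are divided by a model in the gene tables, which makes the levels of these genes uncertain.

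Junctions of 100 kb or more made up 0.973% of the 133379 junctions of any length that met the same read requirements, and their 113008 reads were 0.269% of the 42009652 reads of the table. The median length was 160771 bases and the longest was 1223208 bases. There were 446 of at least 200000 bases, 161 of at least 300000, 61 of at least 400000 and 23 of at least 500000. The median number of reads was 27, against 79 for the 132081 shorter junctions with the same requirements. Most junctions of this length in the table were much less read: 68441 had any read, 58821 of these (85.9%) had 1 read, and 1428 had at least 10, of which 130 had reads under 1 number only.

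Both thresholds cut through a continuous range. The shortest junctions inside were 100113, 100157 and 100196 bases long with 143, 37 and 534 reads, the first in Chchd6 and the last in Babam2. The longest outside were 99890, 99861 and 99770 bases with 10, 11 and 18 reads. With 10 reads there were 98 junctions inside the read threshold, and with 9 reads and both numbers above 0 there were 99 outside it.

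**Figure D1:**
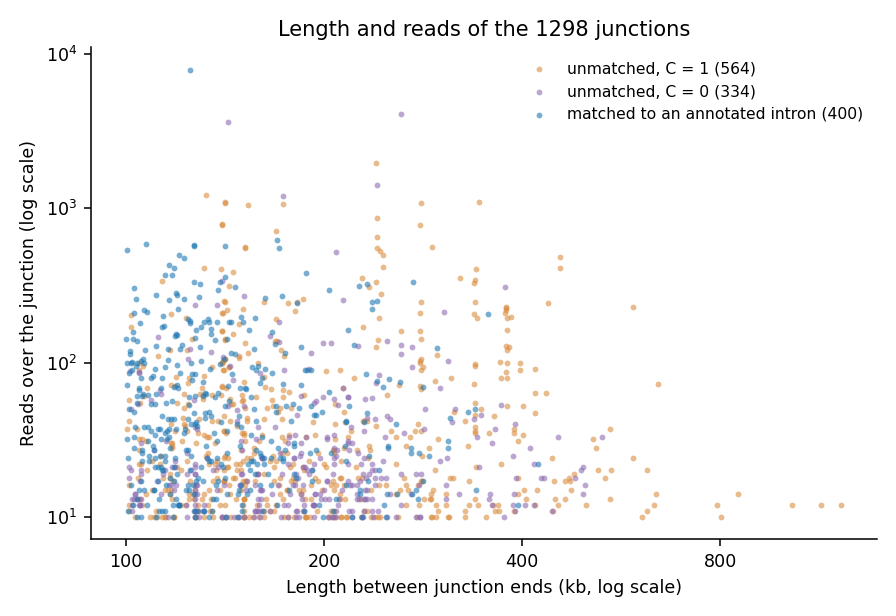
Length (kb, log scale) against reads (log scale) for the 1298 junctions, 1 point each, coloured by whether the length matched an annotated intron and by the C flag of the name. Matched junctions (blue) lie mostly under 200 kb with the longest at 423386 bases, and the highest point, at 7908 reads, is Ghr. Orange points form columns at nearly equal lengths.

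The junctions lay on 21 chromosomes. Chromosome 17 had the most, 132, followed by chromosome 2 with 106 and chromosome 14 with 101. Chromosome 16 had 14 and chromosome Y had 1. As a share of the junctions of any length with the same read requirements, chromosome 14 was highest among the autosomes at 2.14%, followed by chromosome 17 at 1.83% and chromosome 12 at 1.82%, and chromosome 2 was at 0.977%, near the 0.973% of all. Matched junctions were spread more evenly over the autosomes, from 11 on chromosome 16 to 29 on chromosome 3, while those without a match ranged from 3 on chromosome 16 to 109 on chromosome 17. On chromosome 16, 78.6% had a match, and on chromosome 12, 13.6%.

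**Figure D2:**
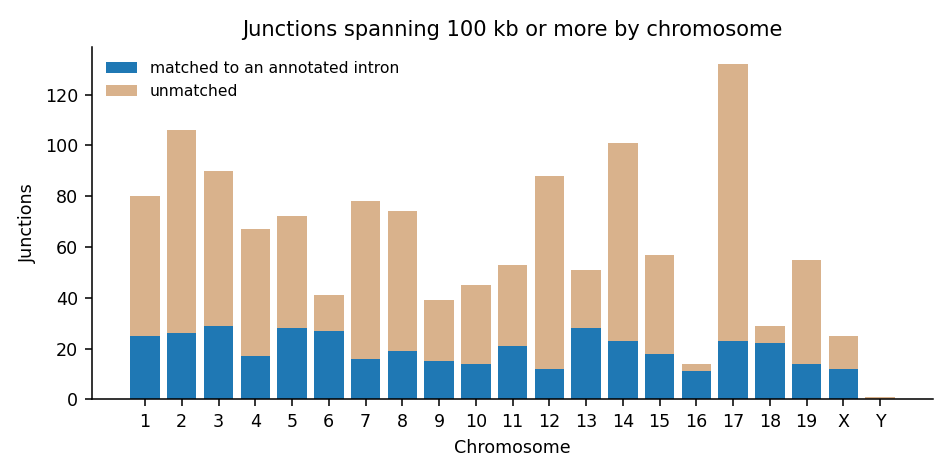
Number of junctions spanning 100 kb or more on each chromosome, with those matched to an annotated intron in blue and the rest stacked above in tan. Chromosome 17 stands highest with 132, of which 23 matched, and chromosome Y has 1.

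Names in the table carry a flag A and a flag C, whose definitions are not given in the sources used here. A was 1 for 29.4% of these junctions and for 91.4% of shorter ones. Of the 382 with A = 1, 376 had an annotated length, and of the 916 with A = 0, 24 did. C was 1 for 74.3% against 98% of shorter junctions, and for all 400 matched junctions. The junctions are therefore described in 3 groups: 400 matched, 564 unmatched with C = 1 and 334 unmatched with C = 0.

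The 400 matched junctions held 42265 reads, 37.4% of the total, with a median of 43 reads and a median length of 132093 bases. For 396 of them the length belonged to a single gene, which gave 309 host genes. Protein coding genes hosted 393. An intron between coding exons was matched by 345 and an intron before the start codon by 40. By its earliest position in any transcript that holds it, the matched intron was the first for 208 (52%) and the second for 74 (18.5%). A transcript can begin inside its gene, so this need not be the first intron of the gene. Among all annotated introns 29.3% were first, and among the 2172 annotated introns of 100 kb or more, 50.7% were. The table therefore held a share of first introns near that of the long annotated introns in general.

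Contigs, the transcribed stretches of the companion table, marked both ends on the same strand for 398 of the 400 (99.5%). Within the matched introns, contigs of the same strand covered a median of 17.1% of the bases (quartiles 7.12% and 32.8%), and contigs of the opposite strand a median of 0.0927%. Another junction with at least 10 reads lay inside, on the same strand, in 21%. Most of these introns thus held no other junction with 10 reads, and their contigs lay mainly on the strand of the host gene.

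Ghr, the growth hormone receptor, had by far the most reads of any matched junction. Its junction at chr15:3408009-3532999 had 7908 reads, 2517 under R1 and 5391 under R2, in an intron before the start codon. The most read annotated junction that follows it in the same transcripts had 4323 reads, so the ratio was 1.83. Transcripts with this intron took 73.3% of the gene's TPM in replicate 1 and 64.8% in replicate 2. The junction of 124249 bases had 45 and 147 reads under R1 and R2, and the one of 194286 bases had 20 and 26. Each of the 3 matched junctions was thus higher under R2. The 3 unmatched junctions with ends in Ghr had 48 and 103 reads together.

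Cdh13 encodes T-cadherin, a membrane-anchored cadherin that binds adiponectin, and 5 of its introns were in the set. Along the gene their lengths were 221705, 169302, 116177, 126991 and 103491 bases and their reads 130, 624, 255, 574 and 258. The junction of 624 reads at chr8:121029616-121198917 had 4.8 times the 130 reads of the junction before it. The next junction of the transcript, shorter than 100 kb and so not in the list above, had 110 reads, a ratio of 5.67. Reads under R2 exceeded those under R1 at all 5, from 80 against 50 to 399 against 225. Introns of the same transcripts thus differed several fold in reads.

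Other genes with 3 or 4 junctions encode mainly adhesion proteins, kinases and RNA-binding proteins. Gpc6, a cell surface glypican, had 4 in a row with 75, 14, 90 and 70 reads, all higher under R1. Pcdh7, a protocadherin, had 4 with 90, 42, 41 and 11 reads, also all higher under R1, and 2 of these differed by 24 bases at their upstream end. Rbms3, an RNA-binding protein, had 357 and 10 reads at junctions whose downstream ends lie 3 bases apart, and 140 at another junction. Tenm4, a teneurin adhesion protein, had 84, 21 and 106, all higher under R2. Negr1, an immunoglobulin-type adhesion protein, had 125, 123 and 67, split nearly evenly. Sdk1, Astn2, Ank2, Mast4, Sox5, Prkg1 and Sugct had 3 each, with 12 to 71 reads per junction.

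Among the remaining most read junctions, Msra, a repair enzyme for oxidised methionine, had 578 reads (221 under R1, 357 under R2). Ablim1, an actin-binding LIM protein, had 572 (269 and 303). Trabd2b, a membrane protease, had 553 (123 and 430). Babam2, a subunit of BRCA1-containing complexes, had 534 (241 and 293). Of the 7 annotated transcripts with this intron, 5 had a deposited level. These 5 took 12.2% and 5.27% of the gene's TPM in replicates 1 and 2. Rbms1, an RNA-binding protein, had 499 (253 and 246). Tbl1x, a subunit of corepressor complexes, had 480 (357 and 123) and was the one of these that was much higher under R1.

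The longest matched junction was in Arhgap6, a GTPase-activating protein, at chrX:165234744-165658129, with 423386 bases and 22 reads, 21 under R1 and 1 under R2. Ank2, the linker ankyrin-B, followed with 393805 bases and 12 reads (1 and 11), at a junction with A = 0. Lsamp, a neuronal adhesion protein, had 355383 bases and 208 reads (206 and 2). Sdk1 had 340200 bases with 15 reads, and Magi1, a junctional scaffold, 339689 with 50. Rad51b, Smyd3, Prkg1 and Fhit had introns of 330419, 310880, 309123 and 308111 bases with 28 to 48 reads. Negr1 had 297084 bases with 125 reads. Of the 10, Lsamp and Negr1 were thus the most read.

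Reads over the long introns were of the order of those over their neighbours. For 178 matched junctions with at least 10 reads over the intron before, the median ratio of reads was 1.01 (quartiles 0.578 and 1.76), and 88 were below 1. For 329 with at least 10 reads over the intron after, the median was 0.86 (quartiles 0.514 and 1.48), and 179 (54.4%) were below 1. Over 104975 adjacent pairs of introns both shorter than 100 kb, the upstream intron had a median of 0.955 of the reads of the downstream one. The quartiles were 0.577 and 1.6, and 52% of pairs were below 1. Downstream over upstream, the direction of the 1.01 above, the median of these pairs was 1.05. Where transcripts differed, the most read neighbour was taken for the long introns, but every pair was taken for the shorter ones. These ratios have no test, because the long junctions had been chosen for at least 10 reads.

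**Figure D3:**
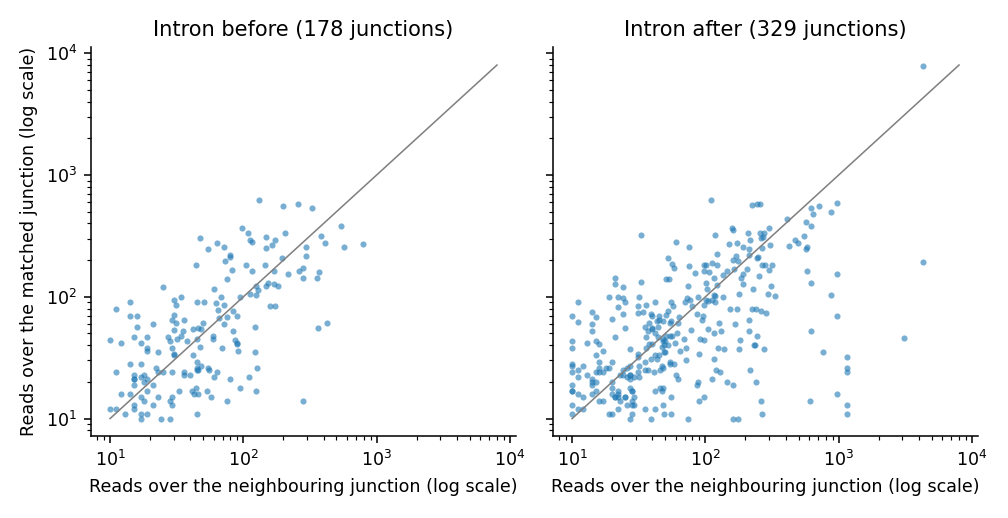
Reads over matched junctions (vertical, log scale) against reads over the neighbouring junction of the same transcript before (left, 178 junctions) and after (right, 329 junctions) the intron (horizontal, log scale). The grey line marks equal reads; points scatter on both sides of it, with a median ratio of 1.01 on the left and 0.86 on the right.

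The 564 unmatched junctions with C = 1 held 48470 reads (42.9% of the total), with a median of 26.5 reads and a median length of 174039 bases. Both of their ends were also ends of shorter junctions in 407 (72.2%), against 21.5% of the matched ones. In 111 of the 564, a shorter junction at the start and a shorter junction at the end had exactly the same length as each other, and in none of the matched. The same R1 and the same R2 number as another junction with a shared end were found in 163, and in none of the matched. Contigs marked both ends in 33.7%, and the median contig level at the less covered end was 0, so many of these ends carried junction reads with no contig. Among the 103 whose ends lay in 2 different single genes, 84 joined genes whose symbols begin with the same 3 letters. In 13 the ends lay in 1 gene.

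Unmatched junctions were crowded. Junctions that overlapped on the same strand formed 363 groups, of which 261 held 1 junction, while 17 groups of 10 or more held 322 of the 898. The largest held 36, on the plus strand of chromosome 17 over chr17:35400132-35611236, with 2252 reads and ends in H2-D1 and 6 H2-Q genes. H2-D1 was at 24 of the named ends. On chromosome 14, 27 minus-strand junctions held 9147 reads, the most of any group, with ends in Plac9a. The plus strand of the same stretch had 29 with 2497 reads.

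Other large groups were also named by related genes at their ends. Copies of Tmem181 on chromosome 17 had 26 junctions on the minus strand with 2371 reads and 22 on the plus strand with 3674. The Selenbp1 and Selenbp2 genes, for selenium-binding proteins, had 13 with 6640 reads. Gbp genes, for interferon-induced GTPases, had 14 with 393 reads, Srp54 genes of the signal recognition particle 18 with 1009, and Ces1 genes, for carboxylesterases, 11 with 1849. The Serpina3 protease inhibitors on chromosome 12 had 9 with 4519 reads, of which 11.5% were under R1. Amy1, salivary amylase, was at the ends of 14 junctions with 180 reads, and all 14 had the same numbers as another junction with a shared end.

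The most read of the unmatched junctions with C = 1 ran from Selenbp2 to Selenbp1 at chr3:94501027-94741129, with 1978 reads, 627 under R1 and 1351 under R2. A junction at chr8:19873749-20005934 joined 2610005L07Rik to 6820431F20Rik with 1217 reads (914 and 303). Near Tmem181a, chr17:6280702-6624248 had 1102 (838 and 264). At the Plac9 copies, 3 junctions had 1095, 1088 and 1084 reads with 520, 518 and 516 under R1, and no contig covered either end. Their near-equal numbers were also those of the shorter junctions at the same ends, which had up to 1095 reads.

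All of the 10 longest junctions of the whole set were unmatched with C = 1. The longest, chr12:17774106-18997313, spanned 1223208 bases with 12 reads, 11 under R1 and 1 under R2. It shared its start and both numbers with junctions of 1137652 and 792292 bases. On chromosome 4, junctions of 642837, 851536 and 640233 bases ended in Gm13306 or in Ccl21b and its copies, and in each of the 3 the shorter junctions at the ends had exactly the same length.

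The 334 unmatched junctions with C = 0 held 22273 reads, with a median of 19. Here 63.8% shared neither end with a shorter junction and 2.4% shared both. Contigs marked both ends in 79.3%, and the median contig level at the more covered end was 8.68, against 3.8 for matched junctions, 1.29 for the unmatched with C = 1 and 4.99 over every 50th shorter junction. A second count in the table, which is never above the reads and has no definition in the sources used here, was under 30% of the reads in 30.2% of them, in none of the matched and in 0.307% of shorter junctions. Contigs of the opposite strand covered a median of 9.33% of the bases between their ends, and of the same strand 11.5%. For 38 of them another junction of the set lay within 50 bases at both ends.

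The most read of this group, chr4:121870932-122132563, had 4056 reads (3284 under R1, 772 under R2) with a second count of 230. Next came chr12:34505011-34647728 with 3638 reads (1758 and 1880) and a second count of 25. Neither had an end in common with a shorter junction. The most read junctions of this group with a named end had it in families described above: Serpina3m was at 2 ends with 1542 reads, at 0.46 and 5.43 TPM in replicates 1 and 2, and Selenbp2 and Selenbp1 were each at 1 end with 1412. Abundant fat genes were named at the ends of several less read ones. Cfd, which encodes adipsin, a protease secreted by adipocytes, was at the end of 5 junctions with 144 reads, at 12566 and 16533 TPM in replicates 1 and 2. Fasn, the fatty acid synthase, was at the end of 5 with 97 reads, at 6184 and 11093 TPM. A single gene was named at an end of only 60 of the 334 junctions, so the levels that follow leave out most of the group. Over the 54 genes named in this way the median TPM was 91.1, and 27 (50%) reached 100 TPM. Among the 12759 genes with at least 1 TPM in both libraries, 10.5% reached 100 TPM. Of the 564 unmatched junctions with C = 1, 367 had an end named in the same way. Their genes had a median of 14.5 TPM, and 15.9% reached 100 TPM. Naming an end needed reads over other junctions of its gene, which favours abundant genes.

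Under R1 lay 51.8% of the reads of the 1298 junctions (exact 95% interval 51.5% to 52.1%, counting error only), and 49.1% of the reads of the whole table. Among the matched, R1 exceeded R2 in 258 and R2 exceeded R1 in 135, with a median share of 61.1% under R1. Among the unmatched with C = 1 the counts were 261 and 269, and among those with C = 0 they were 165 and 156. Shorter junctions with the same read requirements were not counted in this way, and 48.8% of their summed reads lay under R1. Whether the lean of matched junctions toward R1 is particular to long ones was thus not tested. Over the summed reads of the matched the share was 52.7%, and 57.5% without the single most read junction, that of Ghr.

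Single junctions were far from even. Of the matched with at least 30 reads, those with the highest R1 share were both junctions of Tmem132c, a transmembrane protein gene, with 368 reads under R1 against 1 under R2 and 158 against 1. Lsamp with 206 against 2, Nell1 with 51 against 1 and Rad51b with 47 against 1 followed. The lowest shares were in Ugt1a6b, a glucuronosyltransferase that shares its later exons with the other genes of its cluster, with 87 against 500, and in Agmo, an ether lipid cleaving enzyme, with 13 against 73. Next were a junction shared by Umad1 and Gm45062 with 7 against 31, Chchd6 with 31 against 112 and Mgmt, a DNA repair protein, with 36 against 129. Among the unmatched, chr12:114498448-114667295 had 712 reads under R1 and 1 under R2, and chr12:105456563-105629812, which ends in Serpina3m, had 1 and 1205. In the whole set 96 junctions (7.4%) had 1 read under one of the numbers, against 2.18% of shorter junctions. The shorter ones had more reads (median 79 against 27), and the 2 shares were not matched on reads.

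**Figure D4:**
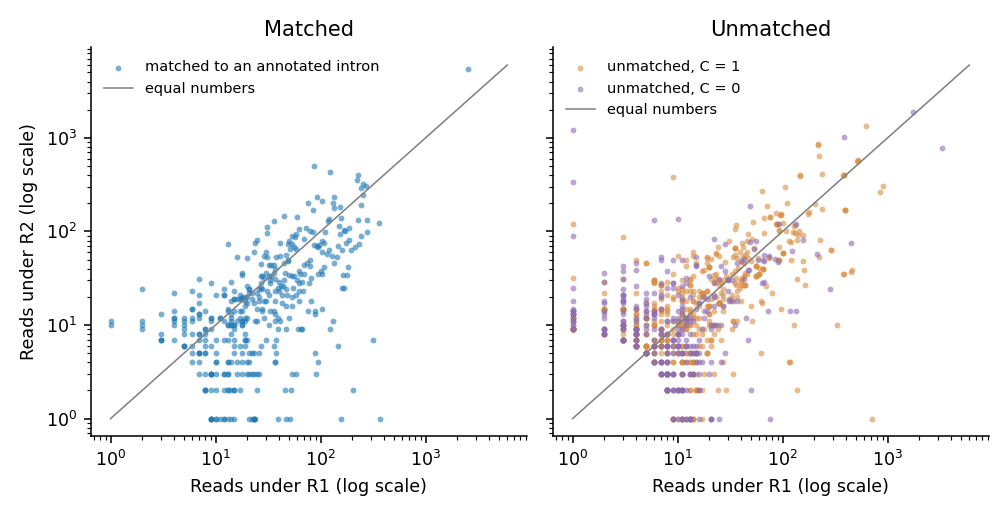
Reads under R1 (horizontal) and R2 (vertical) of each junction, both on log scales, for the 400 matched (left) and the 898 unmatched (right). The grey line marks equal numbers. More matched points lie below the line (258) than above it (135); the unmatched lie on both sides, with single points at 712 against 1 and 1 against 1205.

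The 309 host genes had a median TPM of 8.36 over both libraries (quartiles 4.35 and 19.8), 11 in replicate 1 and 6.19 in replicate 2. At least 1 TPM in both libraries was reached by 272, with a median of 10.5, against 16.7 for all 12759 such genes. The share of annotated introns of 100 kb or more that were in the set is given by the level of the gene as a description, since the minimum of 10 reads favours genes of high level. Of 520 such introns in genes under 0.1 TPM, 1 (0.192%) was found, of 411 at 0.1 to 1 TPM 15 (3.65%), of 684 at 1 to 10 TPM 198 (28.9%), of 427 at 10 to 100 TPM 181 (42.4%) and of 6 at 100 TPM or more 4. Transcripts that hold the matched intron took a median of 88.3% of their gene's TPM, over 384 junctions with a value, and under 10% in 19 of them. Annotated transcripts without a deposited level are left out of these shares, so a low share can be incomplete.

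Hosts of the highest level were Ghr at 267 ± 185 TPM (SD, n = 2; 136 and 398 in replicates 1 and 2), Rbms1 at 120 ± 2.21 and Parva, a focal adhesion protein, at 95.6 ± 20.5. Ube2e2, a ubiquitin-conjugating enzyme, was at 90.6 ± 8.24, the splicing regulator Mbnl1 at 87.6 ± 6.68 and Celf2 at 84.8 ± 28.4. Palld, an actin-binding protein, was at 78 ± 64.7, the transcription factor Nfia at 74.1 ± 4.65, Zfand3 at 69.3 ± 20 and Ugt1a6b at 69.2 ± 67.1 TPM. By their SDs, Ghr, Palld and Ugt1a6b differed most between the libraries. Rbms1 and Parva were apart by more than the larger of their SDs, and every other pair of neighbours in this order by less.

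The libraries were compared on expected counts scaled with edgeR's TMM factors; a gene was called when the exact 95% interval of its ratio, which covers counting error only, lay wholly beyond 2-fold. With 1 library on each side this compares those libraries and gives no p-value. Over the 13403 genes whose scaled counts averaged 100 or more, 23.1% were called, 12.5% higher in replicate 1 and 10.6% higher in replicate 2. Of 296 host genes tested, 98 (33.1%) were called, 64 (21.6%) higher in replicate 1 and 34 (11.5%) higher in replicate 2. Scaled by total counts, 103 and 13 hosts were called, with 77 of the 98 calls kept, and the percentages of all genes were 22.3% and 4.4%. The median log2 ratio of hosts, replicate 2 over replicate 1, was -0.14 beside 0.04 for all genes tested, and -0.66 beside -0.48 with total counts. By the same rule the 9 epithelial markers and 5 of the 6 smooth muscle markers above were called higher in replicate 1 and the 10 adipocyte markers in replicate 2; their part in these counts was not tested.

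Hosts with the largest ratios toward replicate 1 were Tmem132c, 73.8-fold higher there (interval 56.9 to 97.6; 41.2 and 0.41 TPM in replicates 1 and 2), and Nell1, a secreted signalling protein, 39.9-fold (21.5 to 83.6). Lsamp was 38.9-fold higher in replicate 1 (27.3 to 57.5), Gria4, a glutamate receptor subunit, 35.8-fold (22.5 to 60.6) and Ntm, an adhesion protein of the Lsamp family, 27.1-fold (20.3 to 37.1). Toward replicate 2 the largest were Ugt1a6b, 8.35-fold (7.93 to 8.79), and Ghr, 4.9-fold (4.79 to 5). Ccdc85a was 4.41-fold higher in replicate 2 (3.85 to 5.07), Sgcd, a sarcoglycan of the dystrophin complex, 4.22-fold (3.63 to 4.93) and Clybl, a mitochondrial enzyme, 4.01-fold (3.73 to 4.32).

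**Figure D5:**
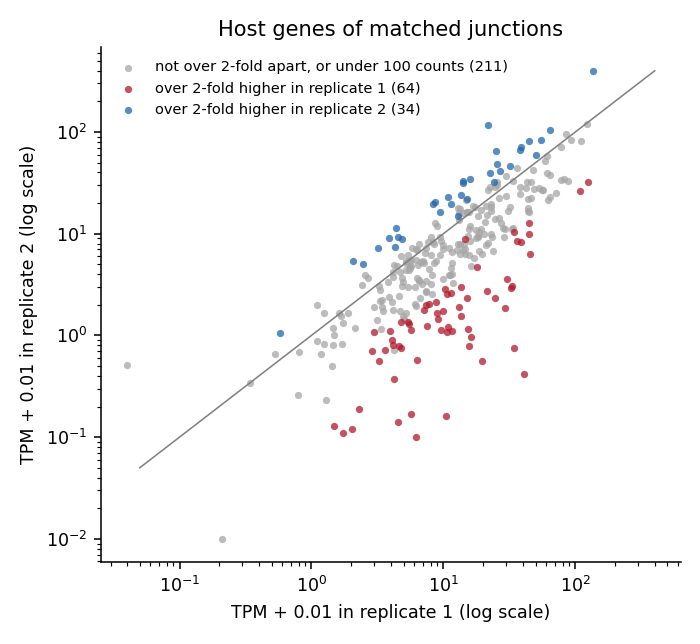
TPM + 0.01 of the 309 host genes in replicate 1 (horizontal) and replicate 2 (vertical), log scales, with genes over 2-fold apart by scaled counts in red (64, higher in replicate 1) and blue (34, higher in replicate 2). TPM values are not scaled by TMM, so most grey points lie below the line of equal TPM. Ghr is the highest point and Tmem132c the red point at 41.2 and 0.41 TPM.

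Gene groups were taken from lists, which held 126 of the 309 hosts. Hosts are counted here, beside the whole list, and calls are those with TMM scaling. With total counts, hosts called higher in replicate 2 fell from 34 to 13. Calls toward replicate 2 in the lists may thus not hold with that scaling. Of 30 tested hosts for adhesion, guidance and synaptic scaffold proteins, 10 were called higher in replicate 1 and 3 in replicate 2, and the median log2 ratio was -0.03. Over the 55 tested genes of that list the counts were 19 and 8. The 10 include Lsamp, Ntm, the guidance receptor Robo1 (5.75-fold), the semaphorins Sema5a (7.15-fold) and Sema3a (6.73-fold), and the ephrin receptor Epha3 (10.6-fold). The 3 include Cdh13 (2.37-fold) and Tenm4 (3.24-fold). Toward replicate 1 the shares of hosts and of the list were both above the 12.5% of all genes.

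Of 32 tested hosts among kinases, phosphodiesterases, GTPase regulators and receptors, 10 were higher in replicate 1 and 2 in replicate 2 (median log2 ratio 0.09), against 24 and 14 of 93 genes of the list. The calcium channel genes Cacna1c (7.69-fold) and Cacna2d1 (4.07-fold), the Wnt receptor Ror2 (10.2-fold), Ppp2r2b (10.7-fold) and Arhgap6 (4.11-fold) were higher in replicate 1, and Ghr and Pde1a (2.26-fold) in replicate 2. Of 25 transcription regulators, 6 were higher in replicate 1, among them Gli2 (3.67-fold). The 3 higher in replicate 2 were Ebf1 (2.83-fold) and Ebf2 (3.48-fold), factors of adipocyte development, and Nfib (2.27-fold). The median of these 25 was -0.39, and 16 and 10 of the 80 listed genes tested were called.

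Of 12 hosts among matrix, dystrophin complex and cytoskeletal linker genes, 3 were higher in replicate 1, Palld (3.05-fold), Thsd4 (3.77-fold) and Adamtsl1 (2.81-fold), and Sgcd was higher in replicate 2; the median was -0.82, and the list had 14 and 7 calls of 53. Of 8 RNA-binding hosts, none was higher in replicate 1 and Celf2 (2.15-fold) was higher in replicate 2 (median -0.17), with 2 and 5 calls among the 22 genes of the list. In the list of lipid, glucose and membrane traffic genes, none of 17 hosts was higher in replicate 1 and Agmo (3.71-fold) and Immp2l (2.64-fold), a mitochondrial inner membrane peptidase, were higher in replicate 2. Its median was 0.64, with 10 and 16 calls among 88 genes. Immp2l, Fhit and Wwox in that list are not lipid or glucose enzymes.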

How the data were processed

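RNA was measured in 2 libraries of 1 group. Per the labels and the notes deposited with the files, gene and transcript tables were made on mm10 with GENCODE M4; which program counted the reads was not found in these sources. The deposited junction table (mm9) holds a count of reads per junction, a second count and an undefined score; the deposited contig table holds a signal level and a score. Scores were not used. The deposited gene tables hold an expected count, in which reads of near-identical copies are divided by the authors' program, and TPM and FPKM. How the mm9 tables placed reads that match several loci was not found in these sources.

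Junctions were selected and matched to GENCODE M21 introns by chromosome, strand and exact length, with no coordinate converted; lengths moved by 1 to 20 bases either way matched 0 to 4 junctions for each of 40 shifts. Starts are 1-based. Genes at unmatched ends were named from runs of intron, exon (up to 5000 bases) and intron lengths of A = 1 junctions; this step, the sequence comparison and the marker lists were chosen after seeing the data. M21 genes were joined to the count tables by identifier. Expected counts were rounded and scaled with TMM (edgeR 4.0.16, R 4.3.3); intervals are exact Clopper-Pearson at 95%, for counting error only. Alternatives covered thresholds, annotation, scaling (DESeq2 1.42.0 size factors), pseudocounts and units.

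The members and lists were chosen with earlier results of these data known. Named junctions were the 10 longest, the 10 most read, the 5 highest and 5 lowest R1 shares with at least 30 reads, those nearest the thresholds and those of genes with at least 3. Results for some genes that these rules or lists would name are not reported here. Named hosts were the 10 of highest TPM and the 5 most extreme ratios each way. These rules were applied to the matched junctions; unmatched ones were chosen by the same measures after seeing the data. No per-sample column was left unused (0), and no p-value was computed.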

Additional observations from a re-analysis of the deposited data

How the results depend on the processing

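Of the 1298 junctions, the number became 446 at a length minimum of 200000, 2982 at 50000, 2035 at a read minimum of 5, 804 at 20 and 824 with 10 reads under R2 alone; with 10 under R1 alone, no requirement on the numbers or 3 reads under each it stayed within 1.5 times (916 to 1428). Their 0.269% of reads became 0.0909% and 0.815% with the length minimums of 200000 and 50000 and 0.291% with no read minimum. The share under R1 was 53.3% as a median over junctions. Junctions with another inside fell from 94.3% to 69.3% when 10 reads were required of the inner one, and bases under contigs from 10.4% to 8.27% with contigs of 200 bases or longer. The median host level was 5.93 in FPKM and 6.19 to 11 TPM when either library was left out. The median log2 ratio of hosts was -0.66 with total counts and -0.62 and -0.76 from TPM with pseudocounts of 1 and 0.1. The cause was not tested. The annotated share (30.8%, 29.4% with protein coding transcripts only) and contigs at both ends (65.7%, 65.3% to 66.9%) stayed within their counting intervals, and the count of hosts over 2-fold apart (98, 72 to 116) within 1.5 times. No paired analysis was possible because there is a single group. Near 10 reads, depth limits which junctions are seen.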
